A study of Mus musculus with 4 samples.

Results

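The 6 genes described here encode colony-stimulating factor 1 and the receptor chains for colony-stimulating factors: Csf1, Csf1r, Csf2ra, Csf2rb, Csf2rb2 and Csf3r. They were chosen by gene symbol, each matched 1 row in every deposited file, and they are 6 of the 16566 genes in the files. All 6 passed the filter on low counts. RNA sequencing was done on neutrophils of C57BL/6 mouse bone marrow, stated to be more than 95% pure and kept in culture medium with 20% serum for 1 h. The 2 vehicle libraries received 80% glucose with 20% PEG300 for 1 h, and the 2 ruxolitinib libraries received ruxolitinib, an inhibitor of the kinases JAK1 and JAK2, for 1 h. The labels give its dose as 0.1 µM in the treatment field and 1 µM in the protocol, so the dose is uncertain. The same vehicle composition is listed for all libraries, those with ruxolitinib included. Genotype, age and sex are not given in the sources used here, and nothing states that the 2 libraries of a group came from separate cultures or animals. The p-values therefore cover only the variation among these 4 samples, and that variation may be technical.

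Colony-stimulating factors set how many myeloid cells the marrow makes and how long they live. The receptor for granulocyte colony-stimulating factor (G-CSF), encoded by Csf3r, is the main receptor driving neutrophil production. It is made of identical chains and signals through JAK kinases and STAT3. The receptor for granulocyte-macrophage colony-stimulating factor (GM-CSF) pairs a ligand-binding alpha chain, encoded by Csf2ra, with the common beta chain, encoded by Csf2rb, which recruits JAK2 and activates STAT5 and also serves interleukins 3 and 5. Mice carry a second beta chain gene, Csf2rb2, whose product serves interleukin 3 only. Csf1r differs from the others: it is a receptor tyrosine kinase with its own kinase domain, it marks monocytes and macrophages, and its ligands are the products of Csf1 and Il34.

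Csf2rb2 and Csf2rb lie next to each other on chromosome 15 (78282507 to 78305721 and 78325800 to 78351001 of GRCm38.p6, in opposite orientations, 20078 bases apart). Their sequences are shown because reads from such a pair can be assigned to either gene. In GENCODE M21 (GRCm38), the coding sequences of 1 transcript of each gene had 2688 and 2634 bases and were identical at 95.2% of 2628 aligned positions, with a longest identical run of 242 bases. Of all stretches of 50 bases in the whole transcripts, 18.9% of those in Csf2rb were found unchanged in Csf2rb2 and 19.0% the other way. For stretches of 100 bases the shares were 7.16% and 7.20%. The pair of lines below gives the 90 coding bases with the most differences, 16, in capitals, at chr15:78338897-78338986 on the plus strand for Csf2rb and chr15:78294345-78294434 on the minus strand for Csf2rb2. The third line is a stretch of 90 coding bases with 0 differences, the same in both genes, which an exon boundary interrupts in the genome (chr15:78340783-78341361 in Csf2rb).
Csf2rb: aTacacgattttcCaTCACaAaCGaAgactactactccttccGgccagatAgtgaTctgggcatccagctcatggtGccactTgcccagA
Csf2rb2: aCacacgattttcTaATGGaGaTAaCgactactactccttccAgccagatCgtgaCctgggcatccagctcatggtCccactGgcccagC
Csf2rb and Csf2rb2 alike: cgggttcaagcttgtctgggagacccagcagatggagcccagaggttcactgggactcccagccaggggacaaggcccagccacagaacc

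The promoters of Csf1 and Csf3r are shown because these genes had the widest differences between the libraries of one group. Each is the 250 bases before a RefSeq start in GRCm38.p6. For Csf1 this is chr3:107760470-107760719 on the minus strand, and for Csf3r chr4:126024409-126024658 on the plus strand. The Csf3r window lies within the RefSeq span of the gene (126023441 to 126044975), so it is not the sequence before the outermost start. Capitals mark matches on either strand to GAGGAA, the core of binding sites for the myeloid factor PU.1, and to the NF-kB consensus.
Csf1: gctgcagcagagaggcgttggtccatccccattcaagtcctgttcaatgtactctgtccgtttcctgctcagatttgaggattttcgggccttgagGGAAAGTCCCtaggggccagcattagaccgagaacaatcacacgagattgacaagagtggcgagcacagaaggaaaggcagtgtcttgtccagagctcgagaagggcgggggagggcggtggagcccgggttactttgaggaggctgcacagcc
Csf3r: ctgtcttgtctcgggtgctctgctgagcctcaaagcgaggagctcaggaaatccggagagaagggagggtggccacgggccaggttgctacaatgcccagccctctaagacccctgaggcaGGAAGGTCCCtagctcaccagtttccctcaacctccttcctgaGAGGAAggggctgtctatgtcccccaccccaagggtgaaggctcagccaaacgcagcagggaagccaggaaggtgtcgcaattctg
The Csf1 window held 1 match to the NF-kB consensus and 0 to GAGGAA. The Csf3r window held 1 match to each, which do not overlap. Of 32851 RefSeq promoters, 7.25% held the NF-kB consensus and 23.3% held GAGGAA in the same window. The windows of Csf2ra and Csf2rb2 held 2 and 1 matches to GAGGAA. That of Csf2ra (chr19:61228419-61228668, minus strand) also reaches into the span of its gene. The STAT motif TTCNNNGAA, found in 7.02% of promoters, was in the window of Csf2rb2 and not in those of Csf1, Csf2ra or Csf3r. These matches are descriptions of the letters and were not tested as sites.

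The libraries held between 14235511 and 15419579 estimated counts. The neutrophil markers were present in all libraries, the 13 listed genes together taking 9.10% to 10.5% of the estimated counts, and Ngp, a neutrophil granule gene, was at 30240 to 34940 CPM (counts relative to the scaled library size). The libraries did not group by treatment. Vehicle replicate 1 and ruxolitinib replicate 1 were closest, with a biological coefficient of variation (the spread beyond counting noise) of 3.63%, against 31.7% between the vehicle libraries and 17.7% between the ruxolitinib libraries. Vehicle replicate 2 and ruxolitinib replicate 2 thus each stood apart from the others, and the results are given with and without them. In bulk RNA, fewer cells of a type and less RNA per cell cannot be told apart.

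Per gene length, the G-CSF receptor gene was the most abundant of the 6. In TPM, which the authors scaled to gene length and library size, Csf3r was at 1035 ± 336 (SD, n = 4 libraries), followed by Csf2ra at 407 ± 97.9, Csf1 at 197 ± 112, Csf2rb at 138 ± 33.3, Csf1r at 68.1 ± 8.96 and Csf2rb2 at 31.1 ± 8.41. Csf3r was above the other genes in every library, and its mean TPM lay above 99.4% of the genes in the files. The ranges of Csf2ra (260 to 463 TPM), Csf2rb (88.0 to 156 TPM), Csf1r (57.0 to 78.6 TPM) and Csf2rb2 (19.2 to 37.2 TPM) did not overlap. Csf1, at 29.5 to 266 TPM, overlapped every other range except that of Csf3r, so its place in the order differed between libraries. In vehicle replicate 2 it was the lowest of the 6, at 29.5 TPM beside 31.0 TPM for Csf2rb2, and in each of the other libraries it was the third.

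**Figure D1:**
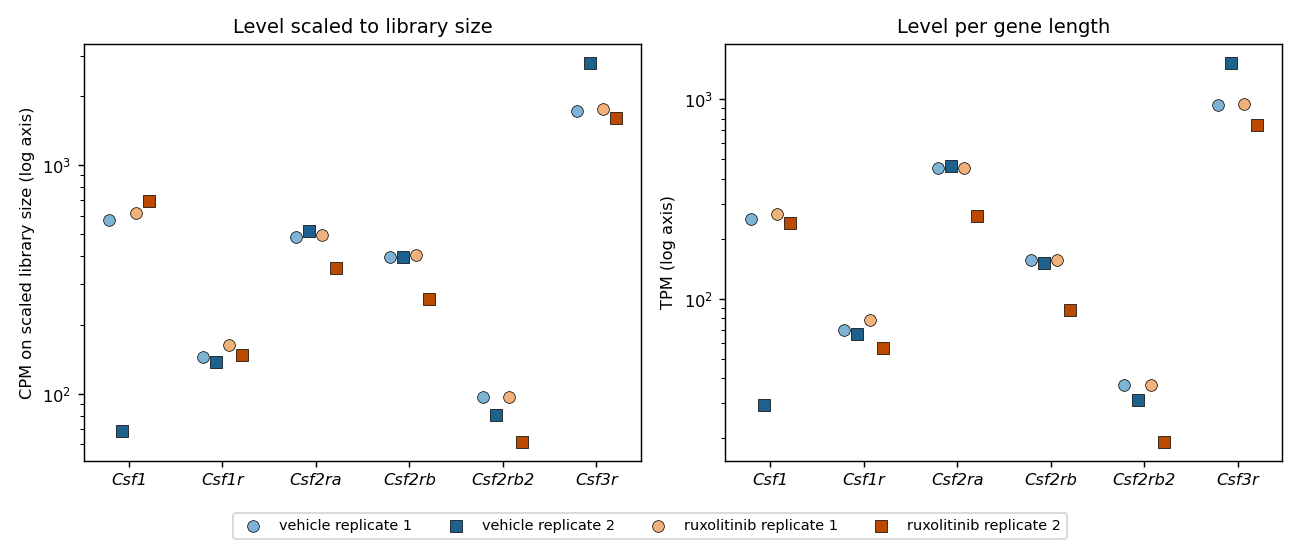
Level of each gene in each of the 4 libraries, as CPM on the scaled library size (left) and as the authors' TPM (right), both on log axes, with 1 point per library. Csf1 in vehicle replicate 2 stands at 68.3 CPM while the other 3 libraries stand at 576 to 694 CPM. Csf2ra, Csf2rb and Csf2rb2 are lowest in ruxolitinib replicate 2.

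The treatment comparison asks whether transcripts for these cytokine and receptor genes differed after 1 h of JAK inhibition. None of the 6 genes passed the test: edgeR's quasi-likelihood test called 0 of 6 at an adjusted p below 0.05, against a background of 0% higher and 0% lower over 11611 genes. Without adjustment, 225 of the 11611 genes had a p below 0.05, with 232 by DESeq2 and 188 by limma-voom, and each of these tools also called 0 genes after adjustment. In the edgeR fit on group alone over all 4 libraries, the smallest unadjusted p of the 6 was 0.154, for Csf1 (edgeR adjusted p = 0.975). The 2 ruxolitinib libraries lay above both vehicle libraries for Csf1 and Csf1r, 2 of 6 genes, beside 14.5% of all tested genes, and lay below for 0 of 6, beside 12.8%. With 2 libraries against 2, the smallest p of an exact two-sided permutation test is 0.333, and no such test was made.

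Csf1, the growth factor of monocytes and macrophages (chromosome 3, 107741048 to 107760469), had the largest difference between libraries. It was at 576 and 68.3 CPM in the vehicle libraries and 613 and 694 CPM under ruxolitinib. Only vehicle replicate 2 was low, and the other vehicle library was 1.07-fold and 1.20-fold below the ruxolitinib libraries. The estimated count was 1047 in vehicle replicate 2, with an exact Poisson interval of 985 to 1112 that covers counting error only, against 9064 (8878 to 9253) in vehicle replicate 1. The vehicle libraries thus differed 8.42-fold in Csf1, where the median difference of all tested genes was 1.32-fold and 30 of 11611 genes differed by more. The ruxolitinib libraries differed 1.13-fold.

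The log2 fold change of Csf1 with ruxolitinib was 1.02 ± 0.67 (SE, n = 2 per group), with a 95% interval of -0.45 to 2.49. Its size rested on vehicle replicate 2. Leaving that library out gave 0.17 (edgeR adjusted p = 1.00), and the fit that left out vehicle replicate 1 gave 3.27 (edgeR adjusted p = 6.6e-10). That second fit called 1 of the 6 genes, beside 7.13% of genes called higher and 6.62% called lower, and it assumes that a lone vehicle library varies like the ruxolitinib libraries. The log2 fold change was 1.11 without ruxolitinib replicate 1 and 0.92 without ruxolitinib replicate 2, neither past the threshold. Over all 4 libraries it was 1.72 by limma-voom and 1.53 by limma on log2(TPM + 1), neither called. With the replicate number as a block it was 1.71 and was called (edgeR adjusted p = 0.0234). That block fit called 9 genes higher and 7 lower over all genes, and whether the numbers pair the libraries is not settled. The background was 0.00846% higher and 0.00846% lower without vehicle replicate 2, 0.0333% and 0.05% without ruxolitinib replicate 1, and 0.00832% and 0.0416% without ruxolitinib replicate 2, and each of these 3 fits called 0 of the 6 genes.

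The genes whose pattern over the 4 libraries was most like that of Csf1 were likewise low in vehicle replicate 2. By the Euclidean distance of centred log2 CPM over 4 libraries, among the 5716 more abundant candidate genes, the nearest was Dusp16, a MAP kinase phosphatase gene, at a distance of 0.046. It was at 202 and 24.8 CPM in the vehicle libraries and 218 and 242 CPM under ruxolitinib. Next came Acod1, which encodes the enzyme that makes itaconate, at 2750 and 275 CPM in the vehicle libraries versus 2860 and 3030 CPM, and Nr4a3, an orphan nuclear receptor gene, at 111 and 15.1 CPM versus 120 and 127 CPM. These 4 points include 2 libraries that are nearly alike, so the likeness says mainly that each gene was low in 1 library. The other ligand of Csf1r, Il34, had 0 counts in all 4 libraries, which allows up to 3 counts a library, or 0.191 to 0.221 CPM.

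**Figure D2:**
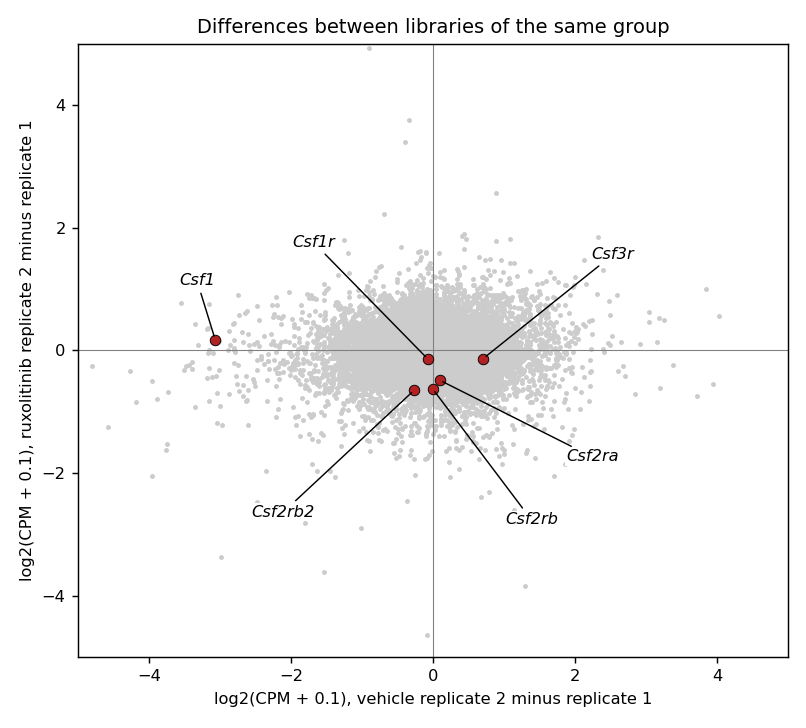
Log2 difference between the 2 vehicle libraries (x axis) and between the 2 ruxolitinib libraries (y axis) for all tested genes, in log2(CPM + 0.1), with the 6 genes in red and 2 other genes beyond the axis limit of 5 not shown. Csf1 lies far to the left, Csf3r to the right, and Csf2ra, Csf2rb and Csf2rb2 below 0 on the y axis.

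Csf1r, the receptor for Csf1, varied least of the 6. It was at 145 and 137 CPM in the vehicle libraries and 162 and 147 CPM under ruxolitinib. The groups did not overlap, but the closest libraries of the 2 groups were 145 and 147 CPM. The log2 fold change was 0.14 ± 0.27 (SE, n = 2 per group), with a 95% interval of -0.46 to 0.73 and an edgeR adjusted p of 0.977. On the authors' TPM the direction turned, with 70.1 and 66.5 TPM against 78.6 and 57.0 TPM and a difference of -0.029 in log2(TPM + 1). Ligand and receptor did not vary together over libraries: the ratio of Csf1 to Csf1r in TPM was 0.444 in vehicle replicate 2 and 3.38 to 4.22 in the others. A neighbouring gene on the opposite strand, Hmgxb3, shares 873 bases with Csf1r, and without a stated strand their reads there cannot be told apart. Hmgxb3 was at 17.8 to 33.1 CPM.

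Since Csf1r marks monocytes and macrophages, the markers of these cells are given beside it. All 16 listed markers had counts in every library, so none of their defining markers was at 0. Their summed level was 1038 and 1105 CPM in the vehicle libraries and 994 and 1247 CPM under ruxolitinib, most of it from Ly6c2, a surface antigen of inflammatory monocytes, at 730 to 993 CPM. Without Ly6c2 the sum was 269 and 323 CPM in the vehicle libraries and 264 and 254 CPM under ruxolitinib. Of the 16 markers 12 were highest in vehicle replicate 2, the library where Csf1r was lowest in CPM, though its TPM was lowest in ruxolitinib replicate 2. Cd68, a lysosomal protein of macrophages, was at 93.7 and 54.1 CPM in the vehicle libraries and 84.6 and 64.9 CPM under ruxolitinib. The part of these cells in the level of Csf1r was not tested.

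The alpha and beta chain genes Csf2ra, Csf2rb and Csf2rb2 were lower in 1 ruxolitinib library than in the other 3 libraries. Csf2ra, the alpha chain (gene on chromosome 19, 61217191 to 61228461), lay at 484 and 514 CPM in the vehicle libraries and 493 and 352 CPM under ruxolitinib. Csf2rb, the common beta chain, was at 397 and 394 CPM in the vehicle libraries and 402 and 260 CPM under ruxolitinib. Csf2rb2, the interleukin 3 beta chain, was at 97.0 and 80.4 CPM in the vehicle libraries and 96.6 and 61.5 CPM under ruxolitinib. For all 3 genes ruxolitinib replicate 2 was the lowest library and the groups overlapped. Ruxolitinib replicate 1 lay between the vehicle libraries for Csf2ra and Csf2rb2 and 1.01-fold above vehicle replicate 1 for Csf2rb.

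Their log2 fold changes were -0.24 ± 0.28 for Csf2ra, -0.26 ± 0.30 for Csf2rb and -0.17 ± 0.31 for Csf2rb2 (SE, n = 2 per group; edgeR adjusted p of 0.975 to 0.977). The 95% intervals ran from -0.86 to 0.38, from -0.91 to 0.40 and from -0.84 to 0.51. Between the ruxolitinib libraries Csf2ra differed 1.40-fold, Csf2rb 1.55-fold and Csf2rb2 1.57-fold, with a median of 1.20-fold over all tested genes. A larger difference was seen in 23.3%, 13.8% and 12.6% of the 11611 genes. Without ruxolitinib replicate 2 the log2 fold changes were -0.016, 0.023 and 0.12, and without ruxolitinib replicate 1 they were -0.49, -0.60 and -0.52. None of these fits called any of the 3.

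The alpha and beta chain genes kept a nearly constant proportion. The ratio of Csf2ra to Csf2rb in TPM was 2.89 and 3.07 with vehicle and 2.90 and 2.95 with ruxolitinib. Their patterns were the closest of all pairs among the 6, at a distance of 0.13 in centred log2 CPM over the 4 libraries. Genes outside the 6 lay closer to each, such as Mtmr9 at 0.027 from Csf2ra and Sec22c at 0.034 from Csf2rb. The next pair among the 6 was Csf2rb and Csf2rb2 at 0.21. Csf1 was at least 2.65 from every other of the 6. In contrast the ratio of Csf3r to Csf2ra ranged from 2.08 in vehicle replicate 1 to 3.28 in vehicle replicate 2.

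Csf2rb took most of the counts assigned to the pair of beta chains. Its share was 80.4% (79.5% to 81.2%, exact Clopper-Pearson 95% interval, counting error only) and 83.1% (82.2% to 83.9%) with vehicle, and 80.6% (79.7% to 81.5%) and 80.9% (79.7% to 82.0%) with ruxolitinib. The share was highest in vehicle replicate 2. Reads from identical stretches can be assigned to either gene, so the share depends on the authors' counting. Summed as 1 feature, the beta chains were at 494 and 475 CPM in the vehicle libraries and 498 and 321 CPM under ruxolitinib, and their log2 fold change was -0.24 with an SE of 0.30 (edgeR adjusted p = 0.975).

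Cells other than neutrophils also carry these chains. Markers of eosinophils, basophils and mast cells, whose growth depends on interleukins 3 and 5, summed to 1058 and 1623 CPM in the vehicle libraries and 1185 and 430 CPM under ruxolitinib, and 9 of 13 were lowest in ruxolitinib replicate 2. All 13 had counts in every library. Prg2 and Epx, which encode eosinophil granule proteins, were at 208 and 41.2 CPM in that library, against 489 to 681 CPM and 188 to 297 CPM in the others. Il5ra, the alpha chain of the interleukin 5 receptor, had the same low point. It was at 7.11 and 10.6 CPM in the vehicle libraries and 6.84 and 3.31 CPM under ruxolitinib. The basophil markers Mcpt8 and Prss34 were instead highest in ruxolitinib replicate 2, at 13.38 and 26.62 CPM. In the others they were at 8.28 to 11.75 CPM and 17.87 to 25.18 CPM. Erythroid markers summed to 23211 CPM in ruxolitinib replicate 2 and to 8925 to 9274 CPM in the others, with all 8 at counts above 0 everywhere. The part of these cells in the levels of the receptor chains was not tested.

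The genes most like Csf2ra, Csf2rb and Csf2rb2 in pattern were of modest abundance. For Csf2ra they were Mtmr9, Camkk2 and Cep83, for Csf2rb they were Sec22c, Rfx7 and Gfpt1, and for Csf2rb2 they were Nupl1, Rrm2 and Kri1, at distances of 0.021 to 0.044 in centred log2 CPM over 4 libraries. Sec22c, a gene of vesicle traffic, was at 58.0 and 57.5 CPM in the vehicle libraries and 59.3 and 39.0 CPM under ruxolitinib. For Csf1r the nearest were Gid8, Ell and Tmed8, at 0.020 to 0.043.

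**Figure D3:**
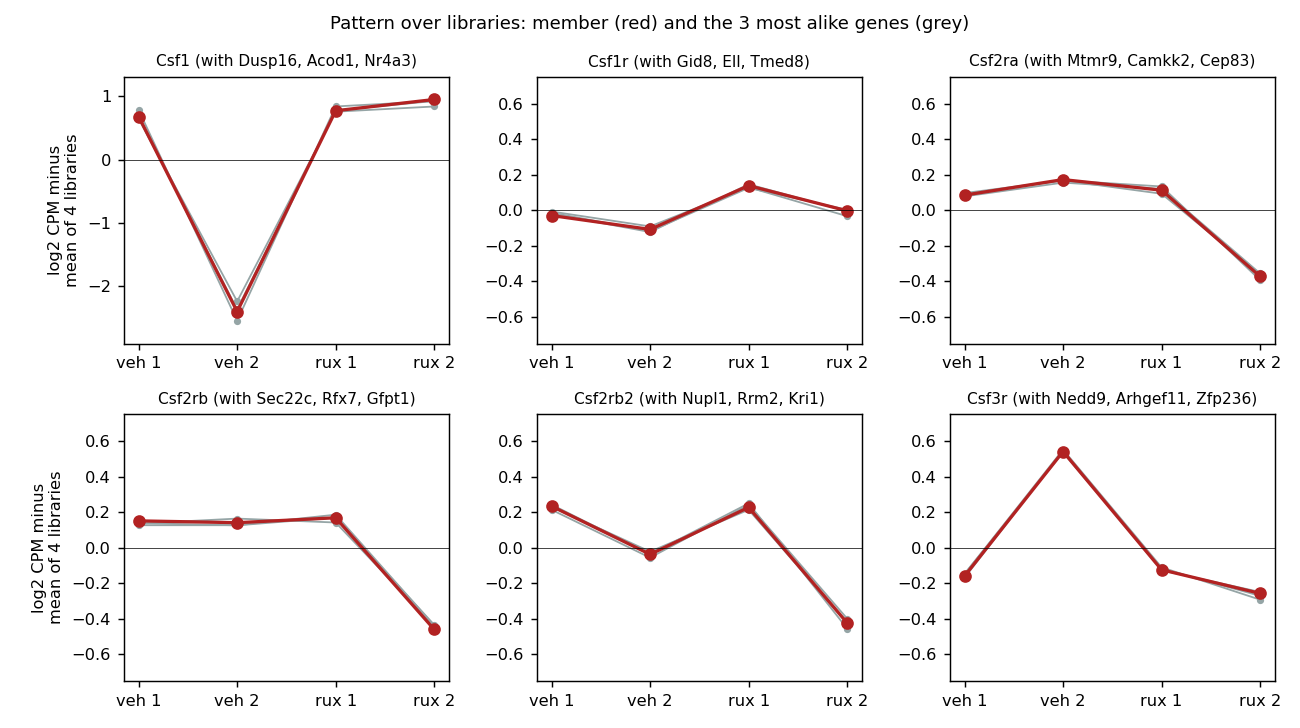
Log2 CPM minus the mean of the 4 libraries (y axis) in the vehicle (veh) and ruxolitinib (rux) libraries for each of the 6 genes in red and the 3 most alike genes in grey. The y axis of Csf1 spans a wider range than the others. Csf1 dips in vehicle replicate 2, Csf3r peaks there, and Csf2ra, Csf2rb and Csf2rb2 dip in ruxolitinib replicate 2.

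Csf3r, the G-CSF receptor gene (chromosome 4, 126023441 to 126044975), was high in 1 vehicle library. It was at 1715 and 2789 CPM in the vehicle libraries and 1758 and 1603 CPM under ruxolitinib. Vehicle replicate 1 lay between the ruxolitinib libraries, so the groups overlapped. The count was 42769 (exact Poisson interval 42365 to 43176, counting error only) in vehicle replicate 2 and 21797 to 27004 in the others. The vehicle libraries differed 1.63-fold, and 26.6% of tested genes differed by more.

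For Csf3r the log2 fold change was -0.42, with an SE of 0.29 (n = 2 per group; edgeR adjusted p = 0.975) and a 95% interval of -1.06 to 0.21. It was -0.038 without vehicle replicate 2 and -0.72 without vehicle replicate 1 (edgeR adjusted p = 0.121). The genes nearest in pattern were Nedd9, a scaffold protein of cell adhesion and migration, Arhgef11, a guanine nucleotide exchange factor gene, and the zinc finger gene Zfp236. Nedd9 was at 239 and 392 CPM in the vehicle libraries and 246 and 226 CPM under ruxolitinib, a distance of 0.013. The ligand gene Csf3 was at 1.72 and 1.17 CPM in the vehicle libraries and 1.20 and 2.06 CPM under ruxolitinib, on 18 to 28 counts. The GM-CSF gene Csf2 had 1 and 0 counts with vehicle and 1 and 4 with ruxolitinib, too few for a fold.

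**Figure D4:**
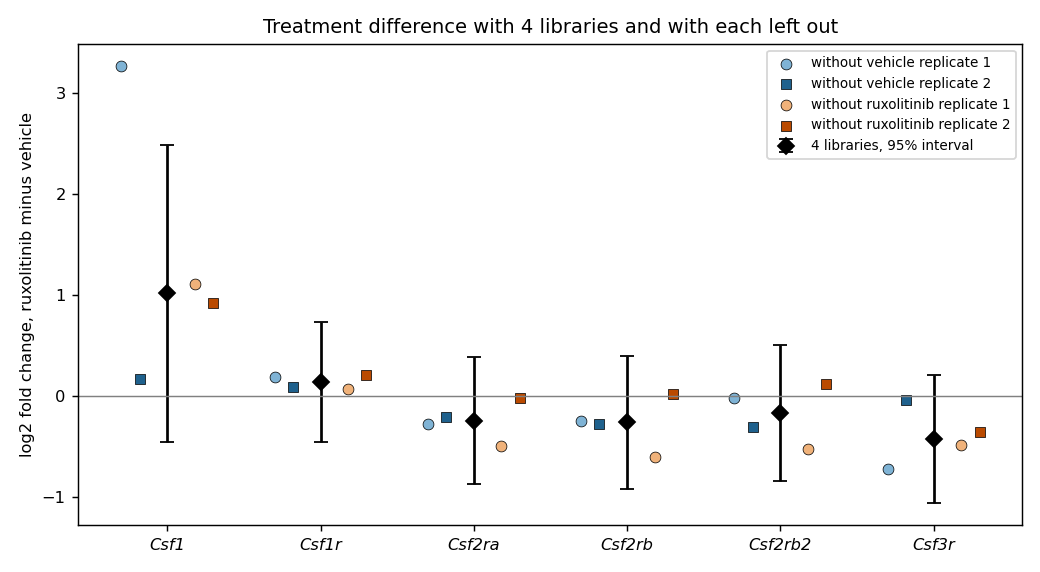
Log2 fold change of ruxolitinib over vehicle (y axis) for the 6 genes, with all 4 libraries (black, bars are 95% intervals) and with each library left out in turn (coloured). Every interval includes 0; Csf1 moves from 1.02 to 3.27 without vehicle replicate 1 and to 0.17 without vehicle replicate 2.

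The pathway around the receptors held 0 calls. Of the listed ligands and other receptor chains, 3 of 6 in the files were tested, 2 above 0 and 1 below, with a median log2 fold change of 0.16. Il3ra, the interleukin 3 alpha chain that pairs with both beta chains, was at 12.5 and 10.1 CPM in the vehicle libraries and 14.4 and 12.5 CPM under ruxolitinib. All 23 kinases, adaptors and phosphatases that act at the receptors were tested, 7 above 0 and 16 below, with a median of -0.16. Over all 11611 genes 49.4% were above 0, 50.6% below, and the median was -0.00. Syk, a kinase that couples many myeloid receptors, was at 1003 and 1063 CPM in the vehicle libraries and 1086 and 1135 CPM under ruxolitinib. Ptpn6, the phosphatase SHP-1 that dampens cytokine receptor signalling, was at 720 and 677 CPM versus 721 and 507 CPM, lowest in the library where the GM-CSF chains were lowest.

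Tyk2, Fgr and Gab2 were among the genes of that list with the smallest unadjusted p-values, each with an edgeR adjusted p of 0.975. Gab2, an adaptor of receptors with the common beta chain, was at 50.2 and 84.6 CPM in the vehicle libraries and 55.9 and 45.1 CPM under ruxolitinib. Fgr, a Src-family kinase, was at 404 and 518 CPM versus 384 and 301 CPM. In each of these genes vehicle replicate 2 was the highest library, as it was for 16 of the 23.

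Of 19 genes listed as targets of STAT3 and STAT5 downstream of colony-stimulating factors, 7 were above 0 and 12 below, with a median of -0.10 and 0 calls. Mcl1, a survival gene that GM-CSF sustains in neutrophils, was at 870 and 1425 CPM in the vehicle libraries and 796 and 915 CPM under ruxolitinib. Junb, an AP-1 subunit, was at 409 and 1455 CPM versus 389 and 498 CPM. Il1r2, the decoy receptor for interleukin 1, was at 968 and 616 CPM versus 955 and 1237 CPM. Vehicle replicate 2 was the extreme library in all 3 genes. Osm and Socs3, also selected by the naming rule, differed by a log2 of -1.37 ± 0.47 and -0.81 ± 0.38 between groups (SE, n = 2 each; edgeR adjusted p = 0.975). Without vehicle replicate 1, Pim2 and Bcl3 were called higher and Socs1, Socs3, Osm and Junb lower, 2 and 4 of 19 beside 7.13% and 6.62% of all genes in that fit; without vehicle replicate 2 the list held 0 calls.

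Of 10 transcription factors that act on the receptor genes, 5 were above 0 and 5 below, with a median of -0.06 and 0 calls. Spi1, which encodes PU.1, the activator of Csf3r, Csf2ra and Csf1r, was at 731 and 654 CPM in the vehicle libraries and 727 and 800 CPM under ruxolitinib. Cebpa, a factor needed for Csf3r expression in precursors, was at 10.3 and 21.9 CPM versus 8.70 and 8.31 CPM, and Cebpe, a factor of late granulocyte maturation, at 49.3 and 92.9 CPM versus 56.8 and 51.8 CPM. Both were highest in vehicle replicate 2, as was Csf3r. Klf4, a factor of monocyte differentiation, was at 6.35 and 29.9 CPM versus 7.57 and 5.96 CPM. Gfi1, a repressor needed for granulocyte formation, and Ets2, an ETS factor, went the other way, Gfi1 at 39.5 and 28.2 CPM versus 43.5 and 45.8 CPM and Ets2 at 583 and 507 CPM versus 614 and 722 CPM. Without vehicle replicate 1, Cebpa, Cebpe and Klf4 were called lower, 3 of 10 beside 6.62% of all genes in that fit, and 0 higher beside 7.13%; without vehicle replicate 2 none of the 10 was called.

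The remaining marker lists held 0 calls in the comparison of all 4 libraries. The median log2 fold change was -0.03 over 13 neutrophil markers, -0.33 over 15 monocyte and macrophage markers, -0.65 over 13 markers of eosinophils, basophils and mast cells, 0.52 over 9 dendritic cell markers and -0.03 over 7 progenitor markers. It was 0.17 over 9 B lineage markers, 0.08 over 8 T and natural killer cell markers and 0.73 over 8 erythroid markers. Progenitor markers summed to 238 and 179 CPM in the vehicle libraries and 235 and 200 CPM under ruxolitinib, and dendritic cell markers to 3995 and 2964 CPM versus 3791 and 6488 CPM. Of the dendritic sum 99.3% to 99.7% came from Cd74 and the MHC class II genes, which B cells also express, and the other 6 markers summed to 23.9 and 17.5 CPM versus 24.7 and 22.5 CPM. Clec9a, a receptor of cross-presenting dendritic cells, was at 1.21 and 3.39 CPM in the vehicle libraries and 1.00 and 0.368 CPM under ruxolitinib. It was lowest in the library with the highest dendritic sum. Its counts were few, 19 and 52 with vehicle and 15 and 5 with ruxolitinib.

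Some of these markers were called when 1 library was left out. Without vehicle replicate 1, beside 7.13% of all genes called higher and 6.62% lower, 6 of the 13 markers of eosinophils and their relatives were lower (Prg3, Siglecf, Epx, Ear1, Ear2 and Ear6), as were Mrc1, Adgre1 and Ccr2 among the monocyte and macrophage markers and Cxcr2 among the neutrophil markers. In that fit 4 of 10 dendritic cell markers were higher (H2-Aa, H2-Ab1, Zbtb46 and Ccr9) and Clec9a was lower, and the progenitor marker Cd93 was higher. Without ruxolitinib replicate 1, beside 0.0333% called higher and 0.05% lower, the globin genes Hba-a1, Hba-a2 and Hbb-bs were higher and Epx was lower. The fits without either replicate 2 library called 0 of the listed markers.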

How the data were processed

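Trizol extraction preceded an Illumina library preparation, per the labels' protocols. Bowtie2, RSEM and DESeq2 with GRCm38.p6 are named in the submitters' processing notes, without versions; read length, strandedness and annotation are not given in the sources used here. Per the file headers, the authors deposited a read count (an estimated count), a TPM and an FPKM per gene. The deposited FPKM values served only to derive gene lengths and to compare their scale with that of TPM. TPM served to compare genes.

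Estimated counts were rounded. Analysis used R 4.3.3, edgeR 4.0.16 (filterByExpr, TMM scaling, quasi-likelihood test on group alone, Benjamini-Hochberg adjustment over 11611 genes, threshold 0.05), limma 3.58.1 and DESeq2 1.42.0. SE is the log2 fold change divided by the root of F. Procedures were tested on simulated data. Of the identifiers, 16466 matched RefSeq.

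The members and the 12 gene lists were chosen with earlier results of these data known. Named genes were, per pathway list, the 4 smallest p-values and the 2 most abundant genes; per cell list, the 2 most abundant, of which the text gives a selection; and per member the 3 genes nearest in centred log2 CPM (prior count 2), leaving out predicted genes. Of listed genes, 1 (Il3) was not analysed here, and some listed or named genes are not reported here. Alternatives were RLE scaling, DESeq2, limma-voom, limma on log2(TPM + 1), a filter of 1 count in any library, removal of the gene length trend, a replicate block, summing the beta chain genes and leaving out each library.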

Additional observations from a re-analysis of the deposited data

How the results depend on the processing

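Across RLE scaling, DESeq2, limma-voom, log2(TPM + 1), the wider filter, removal of the gene length trend and the summed beta chains, the 6 genes kept their direction and stayed uncalled, except Csf1r, which turned to -0.029 on log2(TPM + 1). The log2 fold change of Csf1 moved to 1.72 with limma-voom and to 1.53 on log2(TPM + 1). On the TPM scale the median of all genes was itself -0.13, and the median of the transcription factors moved to -0.20 and that of the neutrophil markers to -0.18. Medians that changed sign there were those of ligands and other chains (-0.025), B lineage (-0.015) and T and natural killer markers (-0.073, and -0.061 with the length trend taken out). The median ratio of the authors' TPM to their FPKM was 1.46 in ruxolitinib replicate 2 and 1.71 to 1.73 in the other libraries. The part of this scaling in the shifts on the TPM scale was not tested.

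Whether the replicate numbers of the titles pair the libraries is not settled. The deviations of same-numbered libraries correlated at 0.04 across genes, but so few libraries cannot decide it. Of all pairs, the replicate 1 libraries were the closest, with a biological coefficient of variation of 3.63%. The replicate 2 libraries were the farthest apart, at 35.0%. With the replicate block edgeR called 9 genes higher and 7 lower, and Csf1 passed with a log2 fold change of 1.71 (edgeR adjusted p = 0.0234); the other 5 genes were not called.

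When libraries were left out one by one, the genes called ranged from 1 to 853 higher and from 1 to 792 lower. The log2 fold change ranged from 0.17 to 3.27 for Csf1, 0.074 to 0.21 for Csf1r, -0.49 to -0.016 for Csf2ra, -0.60 to 0.023 for Csf2rb, -0.52 to 0.12 for Csf2rb2, -0.58 to 0.041 for the summed beta chains and -0.72 to -0.038 for Csf3r. List medians ranged from -0.27 to 0.42 (ligands and other chains), -0.28 to -0.00 (kinases and adaptors), -0.30 to 0.00 (STAT targets), -0.10 to 0.080 (transcription factors), -0.12 to 0.074 (neutrophil), -0.74 to 0.16 (monocyte), -1.05 to -0.35 (eosinophil), 0.19 to 0.78 (dendritic), -0.22 to -0.092 (progenitor), -0.13 to 0.51 (B lineage), -0.14 to 0.33 (T and natural killer) and -0.041 to 1.23 (erythroid). Counting error was small for the 6 genes, which had at least 837 counts in every library. The intervals rest on spread between libraries, which the edgeR fit takes largely from all genes together (common biological coefficient of variation 25.7%). They do not measure each gene's own spread alone. The SE was 0.27 for Csf1r, at 137 to 162 CPM, and 0.29 for Csf3r, at 1603 to 2789 CPM.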
